A study of Mus musculus with 12 samples.

Results

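The genes described here are 10 heat shock proteins and cochaperones, Hspa1a, Hspa1b, Hspa8, Hsp90aa1, Hsph1, Dnajb1, Hspb1, Hspd1, Hspe1 and Bag3, among 55376 gene symbols of a count table from sorted mouse oligodendrocytes. They were chosen by name, and all 10 were found in the table and passed the filter on low counts. RNA-Seq was performed on O1+ CD45- cells sorted by FACS from mouse brain at postnatal day 40, in 12 samples, with 4 samples per genotype and 2 brains per sample. The genotypes were WT (labelled wild-type, replicates 1, 3, 5 and 6), KO (Cnp-Cre:Jab1flfl, replicates 1 to 4) and dKO (p21-/- Cnp-Cre:Jab1flfl, replicates 1, 2, 3 and 5). In KO and dKO mice, Jab1 (Cops5), the catalytic subunit of the COP9 signalosome, was deleted by Cre under the control of Cnp, a gene of maturing oligodendrocytes and of the precursors close to them. The dKO mice also lacked the cell cycle inhibitor p21 (Cdkn1a) in all cells, and no group here lacked p21 alone. The brains were dissociated with collagenase before sorting, in all 3 genotypes.

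Heat shock proteins are molecular chaperones. HSP70 binds unfolded stretches of proteins in cycles of ATP hydrolysis that are started by J-domain proteins such as Dnajb1 and ended by nucleotide exchange factors such as Hsph1 and Bag3, HSP90 matures signaling proteins, small heat shock proteins hold unfolded proteins without ATP, and Hspd1 and Hspe1 form the folding chamber of mitochondria. Many of these genes are induced by the transcription factor HSF1, which binds alternating repeats of the unit GAA (heat shock elements), and they are also known to rise when tissue is warmed or dissociated with enzymes.

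Total counts per sample were 61485556 to 153495112, and the members had 223 to 179723 counts per sample, at which counting error is small beside the differences between samples. Values are CPM, counts per 1000000 of the library size after scaling by TMM factors. The targeted gene Cops5 was at 46.5 to 134 CPM in WT, 45.1 to 89.3 CPM in KO and 44.4 to 90.7 CPM in dKO, with a log2 fold change of -0.62 in KO as compared with WT (SE 0.36, edgeR adjusted p = 0.349). Cdkn1a was at 16 to 85.6 CPM in WT, 380.1 to 639 CPM in KO and 64.9 to 104 CPM in dKO, so that the counts of the deleted gene were not below WT in dKO (log2 fold change 1.08, SE 0.48, adjusted p = 0.394). For both genes, counts over all exons do not show whether the deleted part was transcribed. The 12 oligodendrocyte markers were present in every genotype, with summed levels of 46141 to 107301 CPM in WT, 9094 to 35686 CPM in KO and 17071 to 53443 CPM in dKO, and fewer cells of a type and less RNA per cell cannot be told apart in bulk samples. Markers of other cells differed too, and the endothelial sum (10 genes, 0 of them listed at 0 throughout a genotype) was 333 to 727 CPM in WT, 753 to 5227 CPM in KO and 689 to 4908 CPM in dKO. In the same order, choroid plexus sums were 297 to 4106, 6503 to 24672 and 5432 to 24093 CPM. Erythroid sums were 882 to 10918, 5218 to 88274 and 4323 to 22167 CPM. Astrocyte sums overlapped (5395 to 11920, 3559 to 8401 and 4040 to 10734 CPM). The sum of 8 precursor markers was lower in KO (1093 to 2189 CPM) than in WT (2708 to 5723 CPM). Its largest part came from Bcan, Ptprz1 and Olig1. The marker Cspg4 went the other way, as 1 of the 8 with all KO samples above all WT samples (26.5 to 47.7 against 4.51 to 18.3 CPM).

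The regions upstream of the genes differ in their exact matches to adjacent heat shock element units. Single units and inexact matches were not counted. RefSeq gave an upstream window in GRCm38 for 8 of the 10 members. The letters of 2 adjacent units, GAANNTTC or TTCNNGAA, were searched on both strands in the 250 bases before each start, and these letters read the same on either strand. They were found in a window of 6 of the 8 members (Hspa1a, Hspa1b, Hsph1, Hspb1, Hspd1 and Hspe1), as compared with 14.5% of 27025 genes, and not for Dnajb1 or Bag3. The letters of 3 units, which are GAA, TTC and GAA parted by NN or the reverse complement TTC, GAA and TTC parted by NN, contain the shorter ones and were found for 2 members, Hspd1 and Hspe1, as compared with 0.514% of all genes. The matches of Hspd1 and Hspe1 are the same stretch of DNA read from opposite strands, and the Hspa1a and Hspa1b windows are near copies. The counts of members are thus not counts of separate sequences. A match is a run of letters and does not show that HSF1 binds there.

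The Hspa1a and Hspa1b windows are shown because these genes are near copies of each other. That of Hspb1 is shown because it was the only member called by edgeR, in KO as compared with WT. Capitals mark GAANNTTC. The Hspa1a window is at chr17:34972157-34972406, minus strand, the Hspa1b window at chr17:34959239-34959488, minus strand, and the Hspb1 window at chr5:135887669-135887918, plus strand.
Hspa1a: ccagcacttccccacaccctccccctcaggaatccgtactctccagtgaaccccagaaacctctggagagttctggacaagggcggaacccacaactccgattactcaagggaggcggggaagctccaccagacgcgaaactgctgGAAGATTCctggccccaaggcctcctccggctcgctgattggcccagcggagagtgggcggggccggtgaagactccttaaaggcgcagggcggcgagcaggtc
Hspa1b: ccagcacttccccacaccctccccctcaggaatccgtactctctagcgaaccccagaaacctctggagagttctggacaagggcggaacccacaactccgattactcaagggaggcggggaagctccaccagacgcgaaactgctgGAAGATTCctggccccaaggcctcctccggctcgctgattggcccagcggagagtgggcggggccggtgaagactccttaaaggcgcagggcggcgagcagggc
Hspb1: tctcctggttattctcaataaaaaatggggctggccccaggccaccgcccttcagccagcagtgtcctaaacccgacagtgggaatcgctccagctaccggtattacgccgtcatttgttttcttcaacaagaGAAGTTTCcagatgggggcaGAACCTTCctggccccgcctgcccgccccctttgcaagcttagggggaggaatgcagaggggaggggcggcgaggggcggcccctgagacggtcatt

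The Hspa1a and Hspa1b windows were the same at 247 of 250 positions. Counted from 1 at the first base of the window, with the base of Hspa1a first, the differences were C44T, T47C and T249G. Each holds a single match, which begins 104 bases before the start, and the Hspb1 window holds 2, which begin 117 and 97 bases before the start. The mitochondrial pair Hspd1 and Hspe1 are transcribed in opposite directions, and their annotated genes overlap by 112 bases. A run of 4 alternating units stands between the starts of Hspe1 and of the shorter Hspd1 transcripts, 89 to 72 bases before Hspe1. It is shown with 6 bases on either side, at chr1:55088053-55088082, on the strand of Hspe1, and it lies in the first exon of a longer Hspd1 transcript (chr1:55087989-55088243) that is in the full GENCODE annotation and not in its basic set.
Hspe1 and Hspd1: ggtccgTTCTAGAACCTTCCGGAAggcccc

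Levels differed widely between genes. Per kilobase of annotated exon, Hspa8, the constitutive HSP70, was the highest member in WT with 483 CPM per kb (SD 113, n = 4), above 99.5% of the genes tested. Hsp90aa1 followed with 220 CPM per kb (SD 95.3), and their ranges in WT, 379 to 642 and 88.9 to 301.2 CPM per kb, did not overlap. Hspe1 was at 80.0 CPM per kb (SD 41.7), in a range that overlapped Hsp90aa1, and Hspd1 at 48.1 CPM per kb (SD 11.5), in a range that overlapped Hspe1. Hspb1, Dnajb1 and Hsph1 were at 18.4, 15.2 and 15.0 CPM per kb, with ranges that overlapped each other and lay below Hspd1. The lowest were Bag3 with 6.94, Hspa1b with 5.30 and Hspa1a with 2.58 CPM per kb in WT, also with ranges that overlapped each other. Hspa1a stood above 37.6% of genes in WT, 57.8% in KO and 59.3% in dKO, and Hspb1 above 78.9%, 95.5% and 95.9%.

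The stress-inducible HSP70 genes Hspa1a and Hspa1b had higher means in both mutants, but 1 WT sample was as high as the mutants and the differences did not pass the test. Hspa1a was at 4.65, 3.01, 20.5 and 2.42 CPM in WT 1, 3, 5 and 6. It was at 13.7, 37.9, 12.6 and 18.8 CPM in KO 1 to 4, and at 19.0, 46.3, 10.5 and 11.8 CPM in dKO 1, 2, 3 and 5. WT 5 thus lay among the mutants, and each of the other 3 WT samples lay below all 8 mutant samples. The log2 fold change of Hspa1a was 1.44 in KO as compared with WT (SE 0.71, edgeR adjusted p = 0.261) and 1.5 in dKO (SE 0.77, adjusted p = 0.462).

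Hspa1b, its near copy, was at higher levels, also with WT 5 among the mutants. It was at 7.54, 8.23, 38.2 and 5.43 CPM in WT. In KO it was at 16.1, 55.8, 25.2 and 29.0 CPM, and in dKO at 30.8, 89.9, 18.1 and 12.7 CPM. WT 5, KO 2 and dKO 2 were the highest of their genotypes for both genes. The log2 fold change was 1.09 in KO (SE 0.64, adjusted p = 0.354) and 1.33 in dKO (SE 0.76, adjusted p = 0.513) as compared with WT. Leaving out WT 5 brought both genes past the threshold in KO, with log2 fold changes of 2.63 for Hspa1a (adjusted p = 0.0390) and 2.16 for Hspa1b (adjusted p = 0.0438), whereas leaving out KO 2 lowered them to 0.96 and 0.64. WT 5 also had the highest oligodendrocyte marker sum (107301 CPM) and the lowest endothelial sum (333 CPM), and the part of these in its Hspa1a and Hspa1b levels was not tested.

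The pair stands on chromosome 17, Hspa1a at chr17:34969190-34972156 and Hspa1b at chr17:34956436-34959238, both of 1 exon, and their coding sequences are the same at 99.4% of bases, whereas their 3' untranslated regions are the same at 45.6%. Of the 100-base windows of Hspa1a, 48.6% also occur in another gene, so reads can move between the copies and the single values are uncertain. Summed into 1 feature, the pair had a log2 fold change of 1.22 in KO as compared with WT (SE 0.63, adjusted p = 0.288). Per kilobase, Hspa1b was at 1.14 to 2.90 times Hspa1a over the 12 samples. Hspa1b lies 5.86 Mb and Hspa1a 5.87 Mb from Cdkn1a, on the chromosome that carries the p21 allele of dKO mice.

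**Figure D1:**
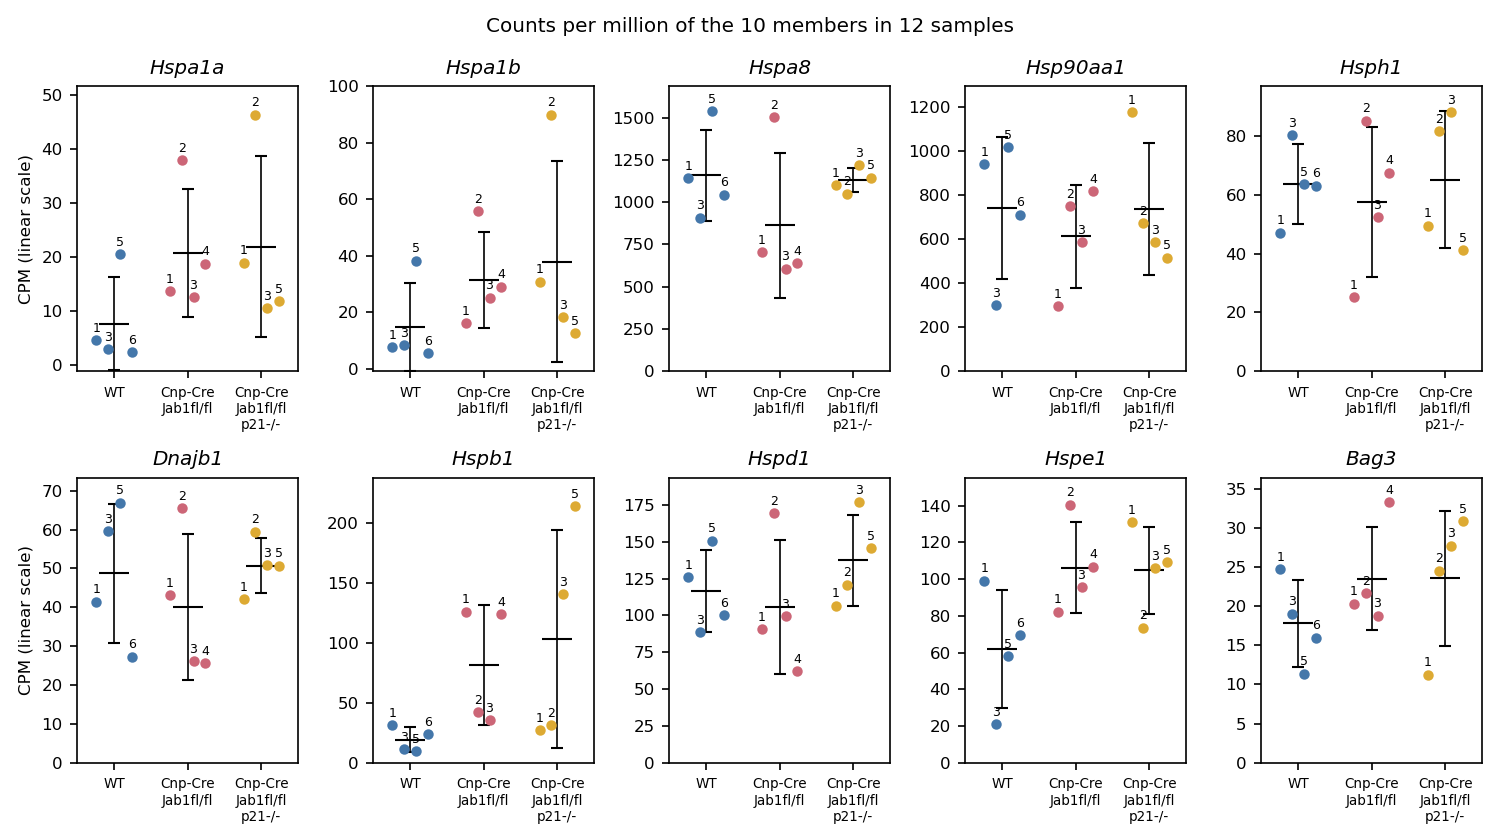
Each panel shows 1 member as CPM (linear axis) in WT (blue), KO (Cnp-Cre:Jab1flfl, red) and dKO (with p21-/-, yellow); points are samples with their replicate number, horizontal bars are means and whiskers SD of 4 samples. For Hspb1, the lowest KO sample (35.2 CPM) was above the highest WT sample (31.5 CPM), and for Hspa1a and Hspa1b WT 5 lay among the mutants.

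The constitutive HSP70, Hspa8, and the inducible cytosolic HSP90, Hsp90aa1, were abundant in all genotypes and did not pass the test in any comparison. Hspa8 was at 1142, 908, 1536 and 1043 CPM in WT. It was at 703, 1500.1, 606 and 638 CPM in KO, where KO 2 stood at the WT level and the other 3 below the lowest WT sample. In dKO it was at 1100.5, 1049.7, 1219 and 1145 CPM, within the WT range. The log2 fold change was -0.43 in KO (SE 0.37, adjusted p = 0.552) and -0.05 in dKO (SE 0.29, adjusted p = 0.965). Without KO 2 the value in KO was -0.85 (SE 0.30, adjusted p = 0.110). As a share of the HSP70 level per kilobase from Hspa1a, Hspa1b and Hspa8, the inducible pair made up 0.628% to 3.10% in WT, 3.40% to 5.89% in KO and 1.74% to 9.81% in dKO. This share was chosen after the values were seen and was not tested.

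Hsp90aa1 was at 939, 300.4, 1018 and 711 CPM in WT, at 296, 750.0, 587 and 818 CPM in KO and at 1178, 672, 586 and 516 CPM in dKO. Its lowest samples were WT 3 and KO 1, and the 3 ranges overlapped. Its log2 fold change was -0.28 in KO (SE 0.43, adjusted p = 0.767) and -0.03 in dKO (SE 0.43, adjusted p = 0.989). Both genes share sequence with processed copies elsewhere, since 62.8% of the 100-base windows of Hspa8 and 47.5% of those of Hsp90aa1 occur in another annotated gene.

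The partners of HSP70 did not pass the test in any comparison. Hsph1, an HSP110 nucleotide exchange factor, was at 47.1, 80.4, 63.6 and 63.1 CPM in WT. It was at 25.1, 85.3, 52.5 and 67.5 CPM in KO and at 49.5, 81.7, 88.1 and 41.1 CPM in dKO, so that KO 1 was the lowest of all samples and the ranges overlapped. Its log2 fold change was -0.14 in KO (SE 0.37, adjusted p = 0.870) and 0.02 in dKO (SE 0.33, adjusted p = 0.985).

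Dnajb1, the J-domain protein that delivers substrates to HSP70, was at 41.4, 59.5, 67.0 and 27.3 CPM in WT. It was at 43.2, 65.6, 26.1 and 25.6 CPM in KO and at 42.0, 59.4, 50.8 and 50.7 CPM in dKO, with the dKO samples inside the WT range and KO 3 and KO 4 just below it. Its log2 fold change was -0.28 in KO (SE 0.40, adjusted p = 0.738) and 0.04 in dKO (SE 0.32, adjusted p = 0.973). Bag3, which links HSP70 to small heat shock proteins and to autophagy, was at 24.8, 19.0, 11.4 and 16 CPM in WT. In KO it was at 20.3, 21.7, 18.8 and 33.3 CPM, and in dKO at 11.2, 24.5, 27.7 and 30.8 CPM. The highest samples were KO 4 and dKO 5, and the log2 fold change was 0.40 in both comparisons with WT (SE 0.37, adjusted p = 0.579 in KO, and SE 0.41, adjusted p = 0.739 in dKO).

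Hspb1 was the only member called by edgeR, and only in KO as compared with WT. It encodes a small heat shock protein (HSP25) that binds unfolded proteins and actin filaments, and it stands at chr5:135887919-135889563. It was at 31.5, 11.2, 9.67 and 23.6 CPM in WT. It was at 126, 42.0, 35.2 and 124 CPM in KO, and at 27.4, 31.1, 140.3 and 214 CPM in dKO. All 4 KO samples were above all WT samples, whereas dKO 1 and dKO 2 lay within the WT range and dKO 3 and dKO 5 far above it. In KO the log2 fold change was 2.10 (SE 0.53, edgeR adjusted p = 0.0364), or 4.30-fold, from a mean of 19.0 CPM (SD 10.4) in WT to 81.7 CPM (SD 49.9) in KO. In dKO it was 2.43 (SE 0.70, edgeR adjusted p = 0.194), or 5.40-fold, and did not pass.

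Hspb1 was thus the 1 member of 10 called higher in KO as compared with WT, where 5.19% of the 17716 genes tested were called higher, and 0 members were called lower, where 2.46% of genes were. A count of 1 in 10 is near this background. Hspb1 was also the 1 member whose KO and WT samples did not overlap, as 9.9% of genes did with KO above WT and 7.24% with KO below. In the other comparisons all 10 members overlapped, where 4.52% of genes were separate with dKO above WT, 3.58% with dKO below WT, 1.22% with dKO above KO and 1.99% with dKO below KO. The call was lost when WT 3, WT 5, WT 6, KO 1 or KO 4 was left out, with log2 fold changes of 1.81 to 2.46 over the 8 samples left out in turn (adjusted p = 0.0231 to 0.107). Of its 100-base windows, 42.7% also occur in the annotated copy Hsp25-ps1.

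The samples high in Hspb1 were high in endothelial markers, though KO 3 had a high endothelial sum and little Hspb1. The endothelial sum was 5227, 753, 2676 and 4145 CPM in KO 1 to 4 and 689, 751, 3102 and 4908 CPM in dKO 1, 2, 3 and 5. In KO 2, dKO 1 and dKO 2, whose sums were close to the highest WT value of 727 CPM, Hspb1 was at 42.0, 27.4 and 31.1 CPM, against 31.5 CPM in WT 1. In the other 5 mutant samples the sums were 2676 CPM or more, and Hspb1 was at 35.2 to 214 CPM. With the log2 endothelial sum as a covariate, a fit added after seeing the data, the log2 fold change of Hspb1 was 0.55 in KO (SE 0.61, adjusted p = 0.911) and 0.23 in dKO (SE 0.40, adjusted p = 0.999). In that fit, 44 of all genes were called in KO as compared with WT, against 1354 without the covariate. Genes were ranked by Pearson's r with Hspb1 of log2(CPM + 1) over the 12 samples, a ranking chosen after the values of Hspb1 were seen. Those most like it were Ramp2 (r = 0.99), Ifnar2, Tspan13, Tm4sf1, Ly6a and Wfdc1 (r = 0.97 each). Next came Vim, Ifitm3, S100a11 and Itm2a (r = 0.96 each). Of these genes, Ramp2, Tm4sf1 and Ly6a are known from endothelial cells. None of the genes named was among the 10 genes of the endothelial sum. Mural cell sums were 281 to 483 CPM in WT, 982 to 1744 CPM in KO and 301.2 to 1676 CPM in dKO, and microglial sums 101 to 301.2, 1159 to 3046 and 422 to 20978 CPM, although the sort gated out cells with CD45, which microglia carry. The part of other cell types in the Hspb1 change cannot be told apart from that of the genotype.

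**Figure D2:**
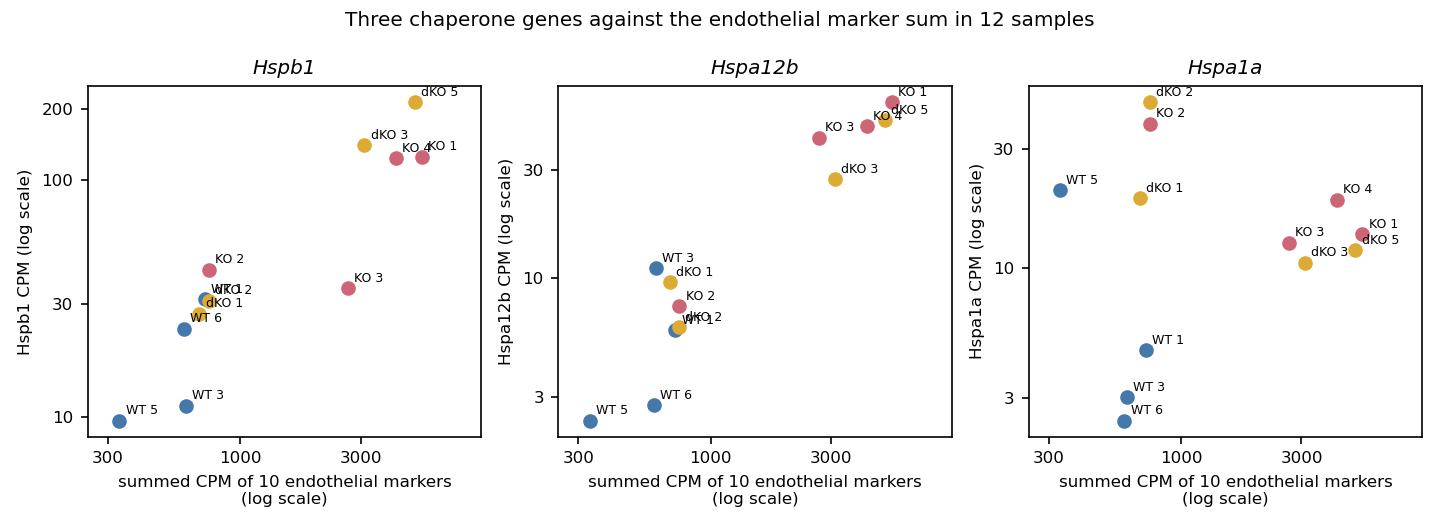
CPM of Hspb1, Hspa12b and Hspa1a (vertical, log scale) against the summed CPM of 10 endothelial markers (horizontal, log scale) in WT (blue), KO (red) and dKO (yellow) samples, each point 1 sample of 2 brains. The 5 mutant samples with sums of 2676 CPM or more hold the highest Hspa12b values, whereas the highest Hspa1a values (37.9 CPM in KO 2, 46.3 CPM in dKO 2) stand at sums of 753 and 751 CPM.

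The mitochondrial chaperonin genes, which stand side by side, did not pass the test in any comparison. Hspd1, the HSP60 barrel, was at 126, 88.5, 151 and 100.4 CPM in WT. It was at 90.8, 169, 99.5 and 62.3 CPM in KO and at 107, 121, 177 and 146 CPM in dKO, with overlapping ranges. Its log2 fold change was -0.14 in KO (SE 0.34, adjusted p = 0.857) and 0.23 in dKO (SE 0.29, adjusted p = 0.797). Hspe1, the HSP10 lid, was at 99.1, 21.1, 58.1 and 69.4 CPM in WT. In KO it was at 82.3, 141, 95.5 and 107 CPM, and in dKO at 131, 73.6, 106 and 109 CPM, so that all 8 mutant samples were above WT 3, WT 5 and WT 6. The log2 fold change was 0.78 in KO (SE 0.41, adjusted p = 0.298) and 0.75 in dKO (SE 0.42, adjusted p = 0.509), and did not pass. The ratio of Hspe1 to Hspd1 per kilobase was 0.748 to 2.46 in WT, 2.60 to 5.37 in KO and 1.87 to 3.85 in dKO. This ratio was chosen after the values were seen and was not tested.

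Deletion of p21 in addition to Jab1 did not move any member past the threshold. In dKO as compared with WT, 0 of 10 members were called by edgeR, where 0.175% of genes were called higher and 0.0169% lower. At an unadjusted p below 0.05 there was 1, Hspb1, where 12.4% of all genes were, so that this count is near the background. DESeq2 also called it (adjusted p = 0.00554), as it did 4.87% of all genes, and limma-voom did not (adjusted p = 0.273). In dKO as compared with KO, 0 members were called, 0 had an unadjusted p below 0.05, where 5% of all genes did, and 0 were called by DESeq2 or limma-voom, while 0% of all genes were called by edgeR. The largest member differences there were 0.39 for Hspa8 (SE 0.36, adjusted p = 0.996), 0.38 for Hspd1 (SE 0.35, adjusted p = 0.996) and 0.34 each for Hspb1 (SE 0.69) and Dnajb1 (SE 0.36). Hsp90aa1 and Hspa1b had 0.27 (SE 0.40 and 0.62), Hsph1 0.18 (SE 0.41), Hspa1a 0.08 (SE 0.57), Bag3 0.00 (SE 0.41) and Hspe1 -0.02 (SE 0.30). The SEs of 0.30 to 0.69 leave room for differences in either direction. The median log2 fold change of the members was 0.13 in KO and 0.31 in dKO as compared with WT, and 0.27 in dKO as compared with KO, beside 0.02, 0.00 and 0.02 over all genes tested.

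**Figure D3:**
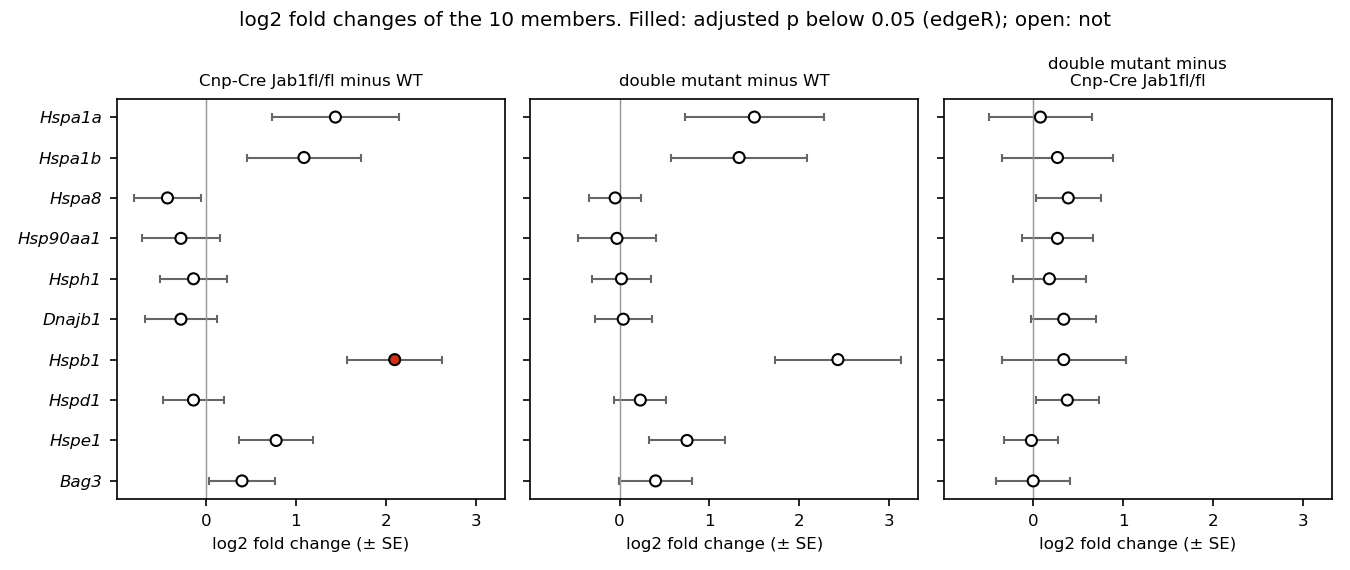
log2 fold change (horizontal, ± SE from the edgeR fit on 4 against 4 samples) of the 10 members in the 3 comparisons; the filled point has an adjusted p below 0.05. Hspb1 in KO as compared with WT (2.10) is the 1 filled point, and the 2 comparisons with WT share the WT samples.

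Within a genotype, the members did not rise and fall as 1 set. Hspa1a and Hspa1b went together (r = 0.96 across 12 samples of log2(CPM + 1) after subtraction of genotype means), as did Hspa8 with Hspd1 (r = 0.84) and with Dnajb1 (r = 0.68), and Hsp90aa1 with Hspe1 (r = 0.76). Hspb1 went with Bag3 (r = 0.70) and opposite to Hspa1b (r = -0.71) and Hspa1a (r = -0.55). These pairs are a selection from all pairs of members. Among Hspa1a, Hspa1b, Hspa8, Hsp90aa1, Hsph1 and Dnajb1, only Hsp90aa1 with Dnajb1 was below 0 (r = -0.2). The other pairs of those genes had r of 0.2 to 0.96. These values describe 12 samples and were not tested. Both genes of a pair come from the same library, and Hspa1a and Hspa1b share sequence, with the treatment of reads that match both not given. KO 2 was the highest KO sample for 7 of 10 members and WT 5 the highest WT sample for 6, whereas no dKO sample was the highest for more than 3. The mean z-score of the 5 genes Hspa1a, Hspa1b, Dnajb1, Hsph1 and Hsp90aa1 was 0.75 in WT 5, 1 in KO 2 and 1.03 in dKO 2, and -0.88 to 0.35 in the other samples.

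**Figure D4:**
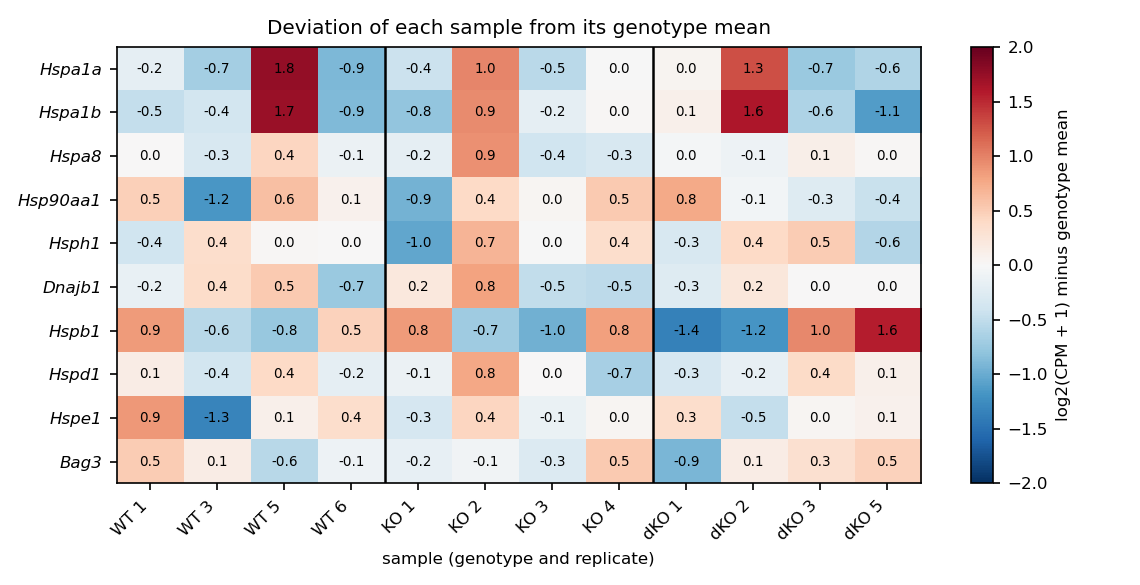
Each cell is log2(CPM + 1) of a member (row) in a sample (column) minus the mean of its genotype; red is above and blue below it, and black lines part the genotypes. Hspa1a and Hspa1b are highest in WT 5, KO 2 and dKO 2, and Hspb1 is lowest of its genotype in WT 5, KO 3 and dKO 1.

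Over the 10441 other genes that averaged 10 CPM or more, those most like this z-score over the 12 samples were Gpr137b-ps (r = 0.90), Natd1 and Nup62 (r = 0.86), Jpt2, Sec24d and Sars (r = 0.85), Ppm1g and Eprs (r = 0.83), and Pdhx and Slc7a14 (r = 0.81). After subtraction of genotype means they were Gpr137b-ps (r = 0.93), Natd1 (r = 0.91), Pex2 (r = 0.90), Ecsit, Arsg and Sgcb (r = 0.89), Nup62 and Apbb1 (r = 0.88), Ippk (r = 0.87) and Hspa4l (r = 0.86). Hspa4l, an HSP110, was the 1 other chaperone gene in either list. The values describe likeness over 12 samples only.

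The other chaperone genes, a list of 99, showed the same mixed picture, and 93 were tested. In KO as compared with WT, 2 of 93 were called higher and 0 lower, beside 5.19% of all genes called higher and 2.46% lower. These counts are not above the background, and they are too small to be read as below it. There were 47 above and 46 below 0, with a median log2 fold change of 0.01. The called genes were Hspa12b, a distant HSP70 known from endothelial cells, and Fkbp5, an HSP90 cochaperone that glucocorticoids induce. Hspa12b was at 5.93, 11.1, 2.37 and 2.77 CPM in WT, at 59.6, 7.55, 41.5 and 46.9 CPM in KO and at 9.65, 6.12, 27.2 and 49.7 CPM in dKO. It was high in the 5 mutant samples with high endothelial sums, and its log2 fold change in KO was 2.81 (SE 0.68, adjusted p = 0.0304), or 0.06 with the endothelial sum as a covariate (SE 0.75). Fkbp5 was at 3.42, 4.60, 0.794 and 1.5 CPM in WT and at 7.05, 11.9, 26.8 and 22.5 CPM in KO, all above WT. In dKO it was at 39.4, 12.4, 21.7 and 1.49 CPM, with dKO 5 at the WT level. Its log2 fold change was 2.73 in KO (SE 0.69, adjusted p = 0.0360) and 2.85 in dKO (SE 0.90, adjusted p = 0.225).

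By role, the counts above and below 0 in KO were 2 and 5 for other HSP70 and HSP110 genes, 9 and 9 for J-domain proteins, 9 and 2 for BAG and HSP70 cochaperones, 3 and 12 for HSP90 cochaperones, 4 and 6 for mitochondrial chaperones and proteases and 10 and 4 for TRiC and prefoldin subunits. Their medians were -0.05, -0.05, 0.14, -0.27, -0.14 and 0.14 on the log2 scale. The 9 other targets of HSF1 had a median of 0.14 with 0 called. Of the 4 tested heat shock factors and regulators 0 were called, and their values below 0 were unlike in size. Hsbp1 was close to 0 with -0.04 (SE 0.38), and Hsf5, with a mean of 5.39 CPM in WT, had -3.16 (SE 1.46). Hsf1, the factor itself, had a log2 fold change of -0.52 in KO (SE 0.40, adjusted p = 0.494), and Hsf2 had -0.83 (SE 0.45, adjusted p = 0.312). Hsp90ab1, the constitutive HSP90, had 0.12 (SE 0.33), Hspa4, an HSP110, 0.56 (SE 0.28), the mitochondrial HSP70 Hspa9 0.39 (SE 0.35), Dnaja1 0.27 (SE 0.31) and Stip1, which joins HSP70 to HSP90, -0.27 (SE 0.34).

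Among the genes nearest to a call in KO, Dnajb2, a J-domain protein of the ubiquitin pathway, was at 271 to 694 CPM in WT and 68.1 to 247 CPM in KO without overlap (log2 fold change -1.56, SE 0.44, adjusted p = 0.0528). Tsc1, an HSP90 cochaperone, had -1.04 (SE 0.30, adjusted p = 0.0592), Dnajb14 -0.97 (SE 0.30, adjusted p = 0.0766) and Bag1 0.97 (SE 0.32, adjusted p = 0.0988). Of the 4 other small heat shock proteins tested, 0 were called and 3 were above 0, with a median of 0.45. Hspb8, a partner of Bag3, had 1.03 (SE 0.37, adjusted p = 0.126) and Cryab, the abundant crystallin of oligodendrocytes, had -1.10 (SE 0.52, adjusted p = 0.235). Cryab was at 2065, 832, 2852 and 1829 CPM in WT and at 364, 1511, 470.1 and 1193 CPM in KO.

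In dKO as compared with WT, 0 of the 93 genes were called by edgeR, 9 had an unadjusted p below 0.05 (12.4% of all genes did), DESeq2 called 1 (Fkbp5, beside 4.87% of all genes) and limma-voom 0, and the median was 0.11. Nearest to a call were Fkbp5, Hspb8 with 1.13 (SE 0.39, adjusted p = 0.261), Hspa12b with 2.06 (SE 0.74, adjusted p = 0.292), Ppid with -0.83 (SE 0.28, adjusted p = 0.252), Clpb with -0.79 (SE 0.29, adjusted p = 0.302) and Dnajb2 with -1.04 (SE 0.48, adjusted p = 0.408). In dKO as compared with KO, 0 were called by any of the 3 tools, 2 had an unadjusted p below 0.05 (5% of all genes did), and the median was 0.14. There the genes nearest to a call were Ptges3 with 0.87 (SE 0.34), Vbp1 with 0.75 (SE 0.35) and Dnaja4 with 0.90 (SE 0.45) upward, and Dnajc21 with -0.97 (SE 0.43), Hscb with -0.58 (SE 0.43) and Ppid with -0.37 (SE 0.30) downward, with adjusted p of 0.950 or more.

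**Figure D5:**
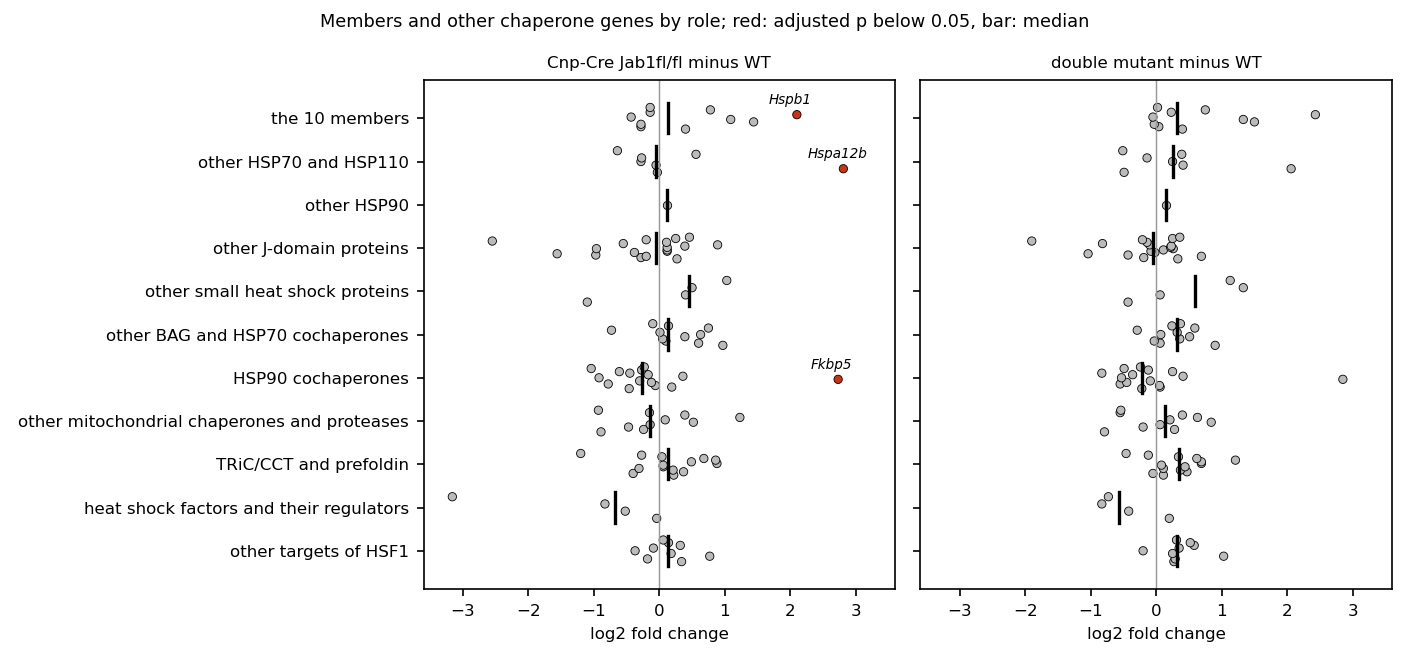
log2 fold change (horizontal) of the 10 members and of 93 other chaperone genes by role (rows) in KO (left) and dKO (right) as compared with WT; red points have an adjusted p below 0.05 and black bars are medians. The 3 red points in KO are Hspb1, Hspa12b and Fkbp5, and there are 0 in dKO.

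Immediate early genes, which also rise within minutes of tissue handling, were looked at beside the chaperones. Of 25 listed, 23 were tested, and 8 were called higher and 0 lower in KO as compared with WT, beside 5.19% and 2.46% of all genes, with a median log2 fold change of 1.37. In dKO as compared with WT, 2 genes were called higher, beside 0.175% of all genes, with a median of 1.22, and there was a median of -0.14 and 0 called in dKO as compared with KO. Atf3 was at 0 to 1.2 CPM in WT, at 89.2 to 181 CPM in KO and at 40.4 to 217 CPM in dKO (log2 fold change in KO 7.66, SE 1, adjusted p = 0.00217). Fos was at 24.4 to 115 CPM in WT and 61.6 to 85.8 CPM in KO (0.06, SE 0.47, adjusted p = 0.958), Jun had 0.96 (SE 0.28, adjusted p = 0.0637) and Egr1 1.02 (SE 0.36, adjusted p = 0.119). Atf3 was highest in KO 2 and dKO 2, whose endothelial sums were 753 and 751 CPM. The other genes called in KO were Btg2, Klf4, Zfp36, Ier2, Junb, Dusp1 and Ier3. For each called gene but Ier3, all KO samples were above all WT samples, as for 9.9% of all genes. Ier3, detailed after its values were seen, was at 3.56 to 13.5 CPM in WT and at 62.3, 9.83, 24 and 48.5 CPM in KO. In dKO it was at 13.2, 2.44, 31.4 and 69.9 CPM, and it was thus high in the 5 mutant samples with high endothelial sums. The part of other cell types in these counts was not tested. Whether the time from dissection to lysis differed between genotypes is not given in the sources used here.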

How the data were processed

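RNA-Seq was measured in 12 samples of sorted O1+ CD45- oligodendrocytes, 4 per genotype, and grouped by their labels. The authors amplified RNA with SMART-Seq v4, trimmed the paired reads (Trimmomatic 0.32), used STAR 2.5.3a to place them on GRCm38 and counted them with featureCounts on GENCODE basic genes. The deposited table holds raw counts by gene symbol, not normalized or filtered. Use of strand and of reads with several matches is not given in the sources used here, so near copies and overlapping genes are uncertain. SMART-Seq reads carry no molecular identifiers.

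The 17716 genes that reached 1 CPM in 4 or more of the 12 samples were tested on the counts of the 8 samples compared, with the quasi-likelihood test of edgeR 4.0.16 (TMM, R 4.3.3), Benjamini-Hochberg adjustment over all of them and a threshold of 0.05. This test prints no SE, so the SE given with edgeR values is the absolute log2 fold change divided by the square root of the F statistic. Alternatives were DESeq2 1.42.0 (on 8 and on 12 samples), limma-voom with quality weights (limma 3.58.1), other normalizations and filters, 1 fit of 12 samples, the replicate number as a block, summing Hspa1a with Hspa1b, and each sample left out. The edgeR, DESeq2 and limma-voom steps were tested on simulated data. Counts of samples within a genotype differed by more than sampling noise, and no sample was taken as a repeat of another. The labels do not say that the samples of a genotype came from separate preparations, so p-values measure the spread between these samples. Exon lengths, overlaps and positions came from GENCODE on GRCm38, and upstream windows from RefSeq on GRCm38. Shared windows are the 100-base stretches of a transcript that occur in full in another gene.

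All 10 members were named with values in every sample. Other chaperone genes were named where called, where among the 3 smallest p in a direction, or where on a fixed list of 9. Immediate early genes were named as Fos, Jun, Atf3 and Egr1, and after the values were seen also where called in KO. The 10 genes most like the inducible members were named too. The members and lists were chosen with earlier results of these data known.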

Additional observations from a re-analysis of the deposited data

Results flagged for a closer look

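In groups of 4 samples, 3 of the 30 member groups held a sample that stood apart from the other 3 by more than Dixon's 95% limit. Chance flags about 1 in 20 groups where values are normally distributed. The limit was applied to CPM on the linear scale, where high values stand out more than on the log scale. Hspa1a in WT 5 was at 20.5 CPM, with the next WT sample at 4.65 CPM, a gap of 0.877 of the range. Hspa1b in WT 5 was at 38.2 CPM, with the next at 8.23 CPM, a gap of 0.915 of the range, and both genes share sequence. Hspa8 in KO 2 was at 1500.1 CPM, with the next KO sample at 703 CPM, a gap of 0.892 of the range. Of the genes used to check the labels, Cdkn1a in KO 4 was at 639 CPM, with the next KO sample at 398 CPM, a gap of 0.929 of the range.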

How the results depend on the processing

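Of the members, Hspb1 passed the threshold in KO as compared with WT under 9 of 18 alternatives and was above 0 in all of them (log2 fold change 0.55 to 2.46). Members called there were 0 with no filter, 0 with 12 samples in 1 fit, 2 with limma-voom (Hspb1 and Hspa1a) and 0 to 2 with each sample left out. Replicate numbers did not pair the samples (correlations of deviations -0.19 to 0.08 over 8 shared numbers). With the replicate number as a block 0 members were called, but only samples whose number occurs in both genotypes then add to the fold change. The shared numbers were 1 and 3 in KO as compared with WT, 1, 3 and 5 in dKO as compared with WT, and 1, 2 and 3 in dKO as compared with KO. This fit thus had little room to call a gene, and its 0 calls decide nothing. Under this block the log2 fold change was -0.15 for Bag3 and -0.03 for Hsp90ab1 in KO as compared with WT, 0.10 for Hsp90aa1, -0.15 for Hsph1 and -0.21 for Dnajb1 in dKO as compared with WT, and -0.25 for Hspb1 and -0.03 for Bag3 in dKO as compared with KO. Other chaperone genes called in KO as compared with WT were 9 and 7 with DESeq2 on 8 and 12 samples, 6 with limma-voom, 4 with a mean of at least 10 CPM, 1 with 12 samples in 1 fit, 0 with no filter and 0 to 6 with each sample left out. DESeq2 called 1 member and 1 other chaperone gene in dKO as compared with WT, in both fits. Over all genes, 1354, 34 and 0 genes were called in the 3 comparisons, against 660 to 2689, 1 to 923 and 0 to 152 under the alternatives. With each sample left out, 678 to 1863 of all genes were called in KO as compared with WT. The member and chaperone counts above thus stand on a background that changed with the setting, and they are not read as above or below it.

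Directions turned under some alternatives for differences that did not pass the threshold in either direction, the largest of them being 0.40 for Bag3 in KO as compared with WT, 0.34 for Hspb1 in dKO as compared with KO and 0.27 there for Hsp90aa1 and Hspa1b. With no filter these were Fos in KO (-0.04), Hsph1 (-0.03) and Dnajb1 (-0.02) in dKO as compared with WT, and Hspe1 in dKO as compared with KO (0.00, as with DESeq2 on 8 samples and with its size factors in edgeR, and 0.06 with limma-voom). Hsp90ab1 in KO was at -0.07 with limma-voom. Bag3 in dKO as compared with KO was at -0.03 with upper-quartile normalization, -0.06 with a mean of at least 10 CPM and -0.01 with limma-voom. With each sample left out, the range in KO as compared with WT was -0.40 to 0.11 for Hsph1, -0.48 to 0.02 for Hspd1, -0.06 to 0.23 for Hsp90ab1 and -0.24 to 0.42 for Fos. In dKO as compared with WT it was -0.15 to 0.13 for Hspa8, -0.34 to 0.18 for Hsp90aa1, -0.15 to 0.19 for Hsph1 and -0.14 to 0.26 for Dnajb1. For dKO against KO it was -0.59 to 0.55 for Hspa1a, -0.62 to 0.69 for Hspa1b, -0.05 to 0.47 for Hsp90aa1, -0.06 to 0.43 for Hsph1, -0.30 to 0.67 for Hspb1, -0.14 to 0.14 for Hspe1 and -0.15 to 0.24 for Bag3. The cause of these turns was not tested. Of the 10 genes most like the inducible members over 12 samples, 9 remained with a pseudocount of 0.1 CPM and 10 with DESeq2 size factors.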
